A study of Mus musculus with 16 samples.

Results

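Integrins are cell surface receptors made of 1 α and 1 β subunit, and leukocytes use them to hold on to other cells and to matrix. The β2 subunit pairs with the α subunits of LFA-1, Mac-1 and the CD11c integrin of dendritic cells and macrophages, which bind ICAMs, complement fragments and fibrinogen. The β7 subunit pairs with αE, which anchors tissue-resident T cells to E-cadherin, or with α4, which directs lymphocytes to gut vessels through MAdCAM-1. The β1 subunit is present on most nucleated cells and pairs with α4 to form VLA-4, which binds VCAM-1 and fibronectin, or with α1 to form a collagen receptor. The 9 genes described here encode the subunits of these dimers: Itgal, Itgam, Itgax and Itgb2 of the β2 family, Itgae and Itgb7 of the β7 family, and Itga4, Itga1 and Itgb1, with Itga4 shared by β1 and β7. They were chosen by symbol, and all 9 of the 55486 symbols in the tables were found in both kinds of sample.

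Tumours of HM1, a mouse ovarian cancer line, were profiled by bulk RNA sequencing, with mannose, a simple sugar, given as a supplement or not given. The groups were whole tumours with mannose (5 libraries), control tumours (5 libraries), CD8 T cells sorted from tumours with mannose (3 libraries) and CD8 T cells from control tumours (3 libraries). The labels used here give no strain, age, dose or duration, name no engineered allele, and do not say whether any group received the PD-1 antibody that the study's title mentions. They also do not say which animals the libraries came from, so each p-value reflects only how these libraries spread, which may be technical.

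Promoters are shown for 3 members that represent the patterns in the data: Itgam and Itgax, the α subunits with the largest differences in the CD8 libraries, and Itgb7, whose level in tumours far exceeded that of its α partners. They are RefSeq sequences on build GRCm38.p6, which is not the GRCm39 build named in the submitters' processing notes. Each runs 5′ to 3′ on the gene's strand, from 250 bases before to 50 bases after the start site. Capitals mark GAGGAA, the core bound by PU.1 and other ETS factors (TTCCTC on the other strand), and TGTGGT, the core bound by RUNX factors (ACCACA on the other strand). Itgam lies at chr7:128062390-128062689 on the plus strand, Itgax at chr7:128129300-128129599 on the plus strand, and Itgb7 at chr15:102231886-102232185 on the minus strand.
Itgam promoter: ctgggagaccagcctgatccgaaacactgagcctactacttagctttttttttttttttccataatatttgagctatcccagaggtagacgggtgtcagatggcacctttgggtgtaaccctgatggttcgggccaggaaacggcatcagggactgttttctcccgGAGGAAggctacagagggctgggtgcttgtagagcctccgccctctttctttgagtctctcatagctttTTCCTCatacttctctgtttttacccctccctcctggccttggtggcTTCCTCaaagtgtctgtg
Itgax promoter: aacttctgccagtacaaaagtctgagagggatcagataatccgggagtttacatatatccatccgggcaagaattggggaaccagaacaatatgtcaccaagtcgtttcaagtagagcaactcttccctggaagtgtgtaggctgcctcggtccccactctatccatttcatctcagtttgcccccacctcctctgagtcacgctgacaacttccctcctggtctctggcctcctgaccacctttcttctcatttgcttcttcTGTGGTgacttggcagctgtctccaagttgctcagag
Itgb7 promoter: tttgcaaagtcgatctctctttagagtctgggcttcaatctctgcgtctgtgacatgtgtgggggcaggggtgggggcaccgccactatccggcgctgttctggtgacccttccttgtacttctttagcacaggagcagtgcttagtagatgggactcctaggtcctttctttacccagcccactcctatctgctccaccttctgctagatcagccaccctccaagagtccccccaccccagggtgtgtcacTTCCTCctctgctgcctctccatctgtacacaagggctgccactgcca
The Itgam window held GAGGAA 3 times, once on the gene's strand and the other times on the opposite strand. The Itgb7 window held it once, on the opposite strand, and the Itgax window held TGTGGT once and no GAGGAA. Of 32851 promoters of the same length, 28.3% held GAGGAA and 16.8% held TGTGGT on either strand. Promoters were matched for 6 of the 9 members. Of the others, Itgb1 held GAGGAA once, Itga4 held TGTGGT once on the opposite strand, and Itga1 held neither. These matches describe letters in a window and no binding was measured.

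All values are TPM, which the authors scaled to a common total and to transcript length, so read depth is unknown. Symbols at 1 TPM or above numbered from 13317 to 13820 in mannose tumours, 12345 to 13429 in control tumours, 14280 to 14384 in mannose CD8 libraries and 13538 to 14017 in control CD8 libraries. Control tumour 1 and mannose tumour 3 stood apart from the other tumours, with mean Spearman correlations to them of 0.936 and 0.955 against 0.962 to 0.972 for the rest. The value columns of the 3 control CD8 tables were headed as mannose samples, and each direction here rests on the sample labels. In their use of T cell receptor β chain V segments, mannose CD8 libraries 1 and 2 correlated at r = 0.995 and control CD8 libraries 1 and 2 at r = 0.999, while all other pairs lay between 0.267 and 0.763. The counts of genes called in CD8 libraries and in the interaction are therefore also given with each such pair averaged into 1 library, which for the interaction and the other gene lists was added after the data were seen. The CD8 libraries carried T cell transcripts such as Cd8a (409 ± 142 TPM with mannose and 582 ± 11.4 TPM in controls, SD, n = 3 each), and also macrophage and carcinoma transcripts, whose sums are given below. In the tumours the keratins Krt8, Krt18 and Krt19 were present, whereas the epithelial markers Epcam, Krt7 and Cldn4 were under 1 TPM in every library of either kind.

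In whole tumours the β subunits Itgb1 and Itgb7 had the highest levels of the 9 and Itga4 the lowest. In mannose tumours Itgb1 averaged 197 ± 17.3 TPM, Itgb7 134 ± 31.2, Itgb2 64.0 ± 32.4, Itgam 34.4 ± 9.48, Itgax 29.9 ± 17.2 and Itgal 15.0 ± 8.37 (SD, n = 5). Itga1, Itgae and Itga4 averaged 3.02 ± 0.756, 2.81 ± 1.07 and 2.23 ± 1.04 TPM there. Neighbours in this order overlapped in their ranges except Itgal and Itga1. Control tumours had the same order except that Itgae stood above Itga1, and there only Itgb7 and Itgb2 did not overlap. Among CD8 libraries with mannose the order was Itgb1, Itgb2, Itgb7, Itgal, Itga4, Itgam, Itgax, Itga1 and Itgae, where the first 4 overlapped with their neighbours, as did Itga4 with Itgam. In control CD8 libraries it was Itgb2, Itgal, Itgam, Itgb1, Itgb7, Itgax, Itga4, Itga1 and Itgae, and of neighbours only Itgam and Itgb1 overlapped. Itgam was thus below Itga4 in the mannose means and above it in the control means, with ranges that overlapped with mannose and not in controls.

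**Figure D1:**
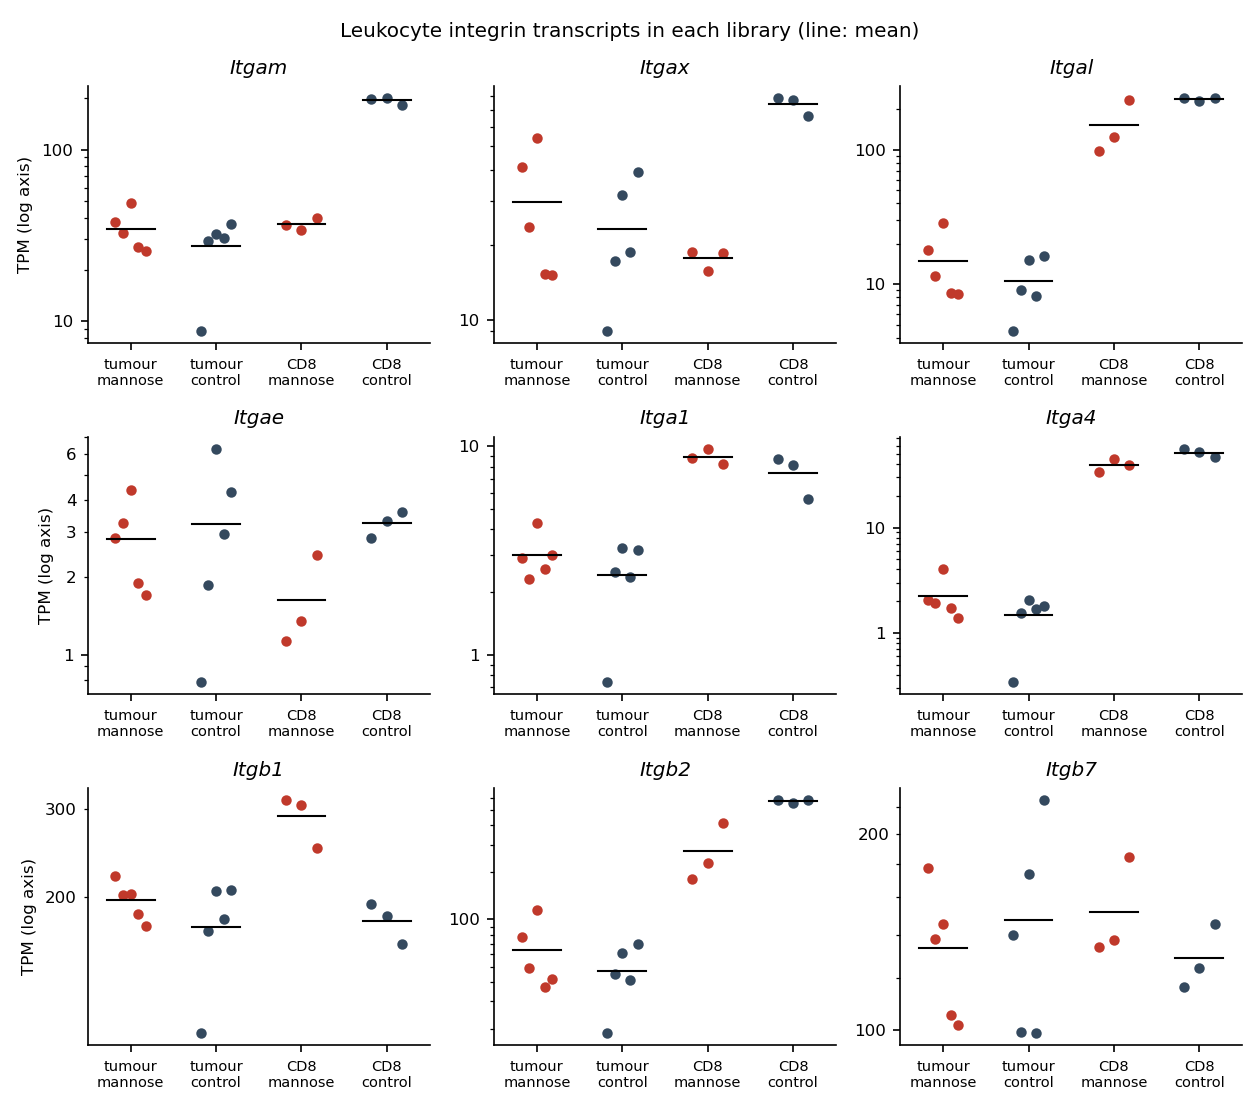
TPM of the 9 integrin genes in each library on log axes, with points for libraries 1 to 5 or 1 to 3 from left to right within a group and a line at the group mean. Mannose and control tumours overlapped for each of the 9 genes. Mannose CD8 libraries lay below all control CD8 libraries for Itgam, Itgax, Itgae, Itga4 and Itgb2 and above them for Itgb1. Of all genes tested, the groups did not overlap for 51.4% in CD8 libraries and for 1.63% in tumours. The Itgae, Itga4 and Itgb2 differences were positive when scaled to macrophage markers. That scaling moved the median of all genes to 1.83, above all 3.

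The first comparison asked whether mannose changed integrin transcripts in whole tumours. None of the 9 members passed limma's test there, and mannose and control tumours overlapped for each of them. This is read against all genes: 0 of 13282 genes tested (0%) passed, 827 had an unadjusted p under 0.05 (735 higher and 92 lower), and the groups did not overlap for 1.63% of genes. The members' median log2 difference was 0.33 with 7 of 9 positive, against a median of 0.12 with 74.4% positive over all genes tested. Median-ratio scaling moved the median of all genes to -0.01, and the members' differences are read relative to the median. In these bulk samples, fewer cells of a type and less RNA per cell cannot be told apart.

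Itgam, the α subunit of Mac-1 on myeloid cells, measured 37.7, 32.7, 49.0, 26.9 and 25.7 TPM in mannose tumours 1 to 5, against 8.75, 29.4, 32.5, 30.4 and 37.1 TPM in control tumours 1 to 5. Control tumour 1 lay far below the rest, and 2 of the 5 mannose tumours were above every control. The log2 difference was 0.41 with a 95% interval from -0.33 to 1.15 (limma, adjusted p = 0.788). Itgax, which encodes the α subunit CD11c of dendritic cells and macrophages, measured 41.2, 23.6, 54.1, 15.3 and 15.2 TPM in mannose tumours, against 8.99, 17.3, 31.8, 18.8 and 39.3 TPM in control tumours. Its groups shared most of their range, and the log2 difference was 0.33 (limma, adjusted p = 0.849). Itgal, the α subunit of LFA-1 on nearly all leukocytes, measured 17.8, 11.5, 28.3, 8.65 and 8.49 TPM in mannose tumours, against 4.45, 9.07, 15.1, 8.15 and 16.3 TPM in control tumours. The log2 difference of Itgal was 0.44 (limma, adjusted p = 0.795). Itgb2, the common β subunit, measured 77.5, 49.1, 115, 37.2 and 41.4 TPM in mannose tumours, against 18.7, 45.0, 60.6, 41.2 and 69.7 TPM in control tumours. Its log2 difference was 0.43 (limma, adjusted p = 0.796). For all 4 genes the highest library was mannose tumour 3 and the lowest was control tumour 1, and without both of these libraries the log2 differences were -0.08 for Itgam, -0.20 for Itgax, -0.06 for Itgal and -0.10 for Itgb2.

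Itgb7, the β subunit of the gut-homing and E-cadherin receptors, measured 177, 138, 146, 106 and 102 TPM in mannose tumours, against 140.01, 99.3, 174, 98.8 and 226 TPM in control tumours. Here control tumour 1 was in the middle of its group rather than at the bottom, and the log2 difference was -0.10 (limma, adjusted p = 0.914). Itgae, the αE subunit known as CD103, measured 2.85, 3.24, 4.35, 1.89 and 1.71 TPM in mannose tumours, against 0.78, 1.86, 6.31, 2.93 and 4.27 TPM in control tumours. The mannose values lay within the control range, with a log2 difference of -0.03 (limma, adjusted p = 0.981). Itga4 measured 2.07, 1.93, 4.04, 1.73 and 1.39 TPM in mannose tumours, against 0.34, 1.55, 2.05, 1.68 and 1.82 TPM in control tumours. Mannose tumour 3 and control tumour 1 were again the extremes, and the log2 difference was 0.38 (limma, adjusted p = 0.757). The summed TPM of Itgae and Itga4, the α partners of Itgb7, came to 0.0375 ± 0.0118 of the Itgb7 level in mannose tumours and 0.0328 ± 0.0164 in control tumours (SD, n = 5 each). The same ratio for the α partners of Itgb2 was 1.27 ± 0.103 in mannose tumours and 1.29 ± 0.0790 in control tumours.

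Itgb1, the β subunit shared by most adhesive cells, measured 220.1, 202, 203, 185 and 176 TPM in mannose tumours, against 107, 171, 206, 181 and 207 TPM in control tumours. Control tumour 1 was the lowest, the other 9 tumours lay between 171 and 220.1 TPM, and the log2 difference was 0.21 (limma, adjusted p = 0.782). Itga1, the α subunit of a collagen receptor on resident T cells and stromal cells, measured 2.93, 2.31, 4.28, 2.59 and 3.00 TPM in mannose tumours, against 0.74, 2.50, 3.25, 2.37 and 3.18 TPM in control tumours. Its log2 difference was 0.29 (limma, adjusted p = 0.792). Several members lie across other genes in the GENCODE M21 annotation, and the labels do not say whether reads were counted by strand. Itga1 overlaps Pelo on the same strand (11.7 to 17.9 TPM in tumours), Itgae overlaps Haspin on the opposite strand (1.43 to 5.05 TPM) and Itga4 overlaps Cerkl on the opposite strand (0 to 0.93 TPM), so the low Itga1 and Itgae values are uncertain. Itgam overlaps the predicted gene Gm49368 on the same strand, which was listed at 0.53 to 1.98 TPM in tumours. In CD8 libraries Gm49368 was at 0.46 to 0.81 TPM with mannose and 1.47 to 5.98 TPM in controls, lower with mannose as Itgam was. Cerkl was at 1.2 to 7.68 TPM in CD8 libraries, and Pelo at 11.4 to 13.7 TPM. The part of these overlaps in the members' values was not tested.

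Across the 10 tumours, the transcripts of known dimer partners were compared in 7 pairs as log2(TPM + 1), with 2-sided permutation tests adjusted over the 7 pairs by the Benjamini-Hochberg method. Itgb2 followed each of its α partners closely, but also other genes such as Cybb (r = 0.993). Its median r with all 9533 genes of at least 5 TPM on average was 0.566. The permutation tests compare with no correlation, not with that median. For Itgal and Itgb2 Pearson's r was 0.986 (permutation p = 3e-05, adjusted 7e-05) and Spearman's rho 0.964 (permutation p = 6e-05, adjusted 4.2e-04). For Itgax and Itgb2 r was 0.971 (permutation p = 1e-05, the smallest the resampling can give, adjusted 7e-05) and rho 0.939 (permutation p = 2.7e-04, adjusted 7.93e-04). For Itgam and Itgb2 r was 0.923 (permutation p = 2e-05, adjusted 7e-05) and rho 0.927 (permutation p = 3.4e-04, adjusted 7.93e-04). Without the 2 tumours farthest from the median of the α subunit, control 1 and mannose 3, r was 0.975, 0.979 and 0.918 in the same order, and with each group's mean removed it was 0.984, 0.975 and 0.913.

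Itgb7 did not pass with either partner. For Itgae and Itgb7 r was 0.546 (permutation p = 0.103, adjusted 0.121) and rho 0.491 (permutation p = 0.155, adjusted 0.155), with r = 0.751 when control tumours 1 and 3 were left out. For Itga4 and Itgb7 r was 0.195 (permutation p = 0.620, adjusted 0.620) and rho 0.600 (permutation p = 0.0740, adjusted 0.0864), with r = 0.726 when control 1 and mannose 3 were left out. Control tumour 1, with 0.34 TPM of Itga4 beside 140.01 TPM of Itgb7, was the tumour farthest from the others in that pair. For Itga4 and Itgb1 r was 0.843 (permutation p = 0.00558, adjusted 0.00977) and rho 0.867 (permutation p = 0.002, adjusted 0.0035), with r = 0.904 without control 1 and mannose 3. For Itga1 and Itgb1 r was 0.886 (permutation p = 0.0127, adjusted 0.0178) and rho 0.612 (permutation p = 0.0673, adjusted 0.0864), but r fell to 0.429 without control 1 and mannose 3, so that relation rests on those tumours. Beside these values, the median r of Itgb1 with all 9533 genes of at least 5 TPM on average was 0.661. Each treatment group had too few tumours for a correlation of its own.

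**Figure D2:**
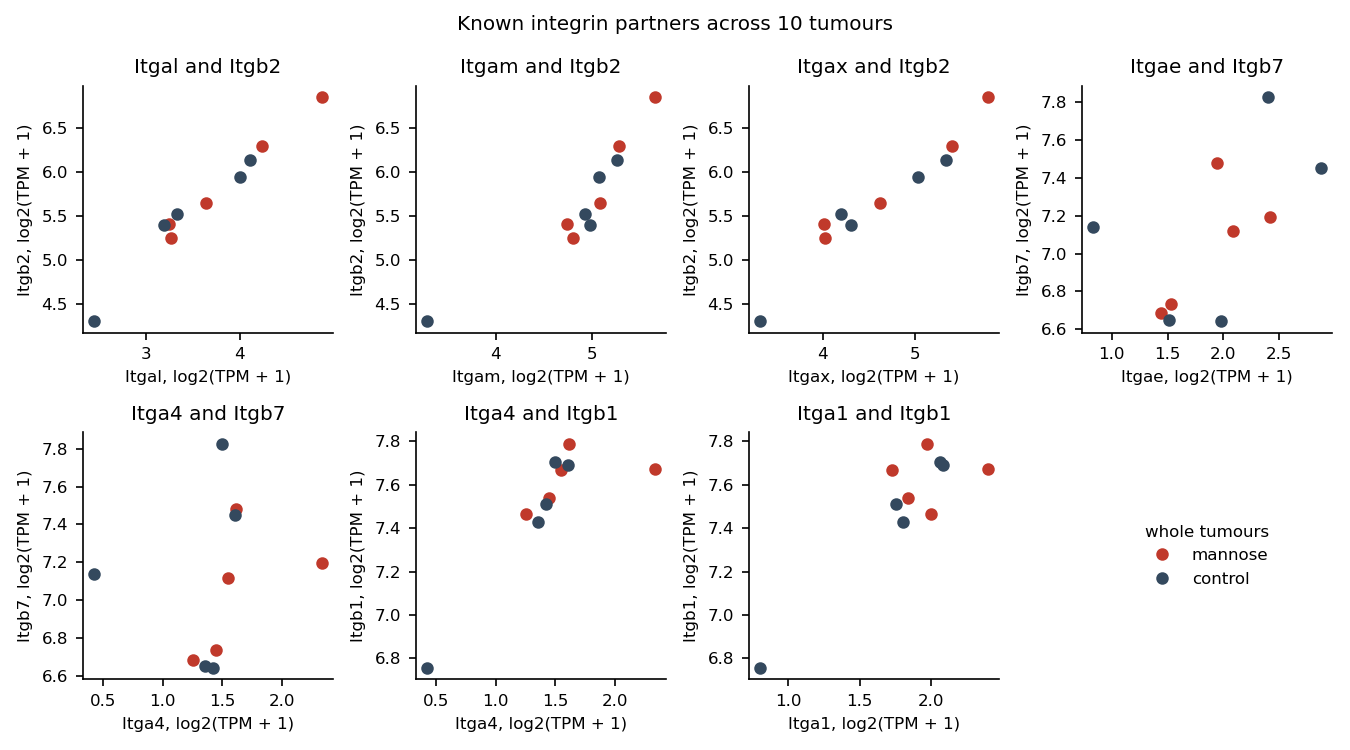
Levels of known integrin partners as log2(TPM + 1) in the 10 tumours, with 1 panel per pair, the α subunit on the x axis, the β subunit on the y axis and colours for mannose and control. The 3 pairs with Itgb2 form a line along which mannose and control tumours mix (r from 0.923 to 0.986), whereas the pairs with Itgb7 scatter (r of 0.546 and 0.195) and control tumour 1 sits at the far left of every panel.

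As a description over the 10 tumours, with libraries and depth shared by all points, the genes most like each member were taken from 9533 genes with a mean of at least 5 TPM. The nearest to Itgb2 were Cybb, a subunit of the phagocyte oxidase (r = 0.993), the lysosomal protease gene Ctsb (r = 0.990) and the leukocyte actin-bundling gene Lcp1 (r = 0.987). Itgal was nearest to Slc15a3 (r = 0.990), Slamf8 (r = 0.988) and Cybb (r = 0.988), and Itgax to the lysosomal gene Psap (r = 0.990), Wars (r = 0.988) and Itgal itself (r = 0.982). Itgam was nearest to Fryl (r = 0.990), Mylk (r = 0.990) and Cytip (r = 0.988), and Itga4 to Ptprc, the CD45 gene of all leukocytes (r = 0.989), Lipa (r = 0.988) and Ptprj (r = 0.983). For Itgb1 they were Ckap5, Ppp6r3 and Gpd2 (r = 0.995, 0.994 and 0.992), for Itga1 Usp7, Adamts2 and BC005537 (r = 0.974, 0.970 and 0.970), and for Itgae Scpep1 and Mob3a (r = 0.985 and 0.981). Itgb7 was nearest to Scamp4 (r = 0.975), Uggt1 (r = 0.973) and Pigu (r = 0.958). The median r over all candidates was 0.661 for Itgb1, 0.636 for Itgam, between 0.533 and 0.604 for Itgal, Itgax, Itgae, Itga4, Itgb2 and Itga1, and 0.199 for Itgb7. Members were also set against the summed TPM of marker lists in the same tumours, as log2(sum + 1). Itgb2 had r = 0.969 with T cell, 0.773 with macrophage, 0.561 with fibroblast and -0.587 with neutrophil markers. Abundant genes weigh most in such sums. Itgb7 had r = 0.446 with T cell, 0.08 with macrophage, -0.27 with fibroblast and -0.312 with neutrophil markers. With the keratins of the carcinoma list Itgb7 had r = 0.761 and Itgb2 had r = -0.000555.

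The second comparison asked how integrin transcripts differed between mannose and control libraries of sorted CD8 T cells. Macrophage and carcinoma transcripts also differed between these groups, as given below. Fewer cells of a type and less RNA per cell cannot be told apart here either. Itgam and Itgax, which mark myeloid cells, were lower in every mannose library, by the largest amounts among the members, and Itgb1 was higher. Of the 9 members, 5 passed limma's test as lower (Itgam, Itgax, Itgb2, Itgae and Itga4) and 1 as higher (Itgb1). Scaled to macrophage markers, Itgb2, Itgae and Itga4 had positive differences (0.78, 0.61 and 1.49), all below the median of all genes, which that scaling moved to 1.83. Of all 14280 genes tested, 11.7% passed as lower and 23.2% as higher. The groups did not overlap for 6 of the 9 members, against 51.4% of all genes. The members' median log2 difference was -0.71, against 0.09 over all genes tested. With like libraries averaged, 2 members passed, Itgam and Itgax, both lower. In that averaged fit 561 of all 14459 genes tested passed as lower and 1091 as higher.

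Itgam measured 36.5, 34.2 and 40.1 TPM in mannose CD8 libraries 1 to 3, against 197, 200.4 and 182 TPM in control CD8 libraries 1 to 3. The groups lay far apart, with means of 36.9 ± 3.01 TPM with mannose and 193 ± 9.65 TPM in controls (SD, n = 3 each), 5.23-fold lower with mannose. The log2 difference was -2.36 (SE 0.09, 95% interval -2.57 to -2.15, limma, adjusted p = 1.34e-04), and it passed in all 17 alternatives. Itgax measured 18.8, 15.7 and 18.6 TPM in mannose libraries, against 78.4, 77.0 and 66.4 TPM in control libraries. Its means were 17.7 ± 1.71 TPM with mannose and 73.9 ± 6.54 TPM in controls, a log2 difference of -2.01 (SE 0.11, 95% interval -2.27 to -1.74, limma, adjusted p = 2.29e-04). It passed in 16 of 17 alternatives, and was lost when libraries were scaled to their macrophage markers (log2 difference -0.13, adjusted p = 0.348).

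Itgb2 measured 182, 228 and 416 TPM in mannose libraries, against 577, 559 and 583 TPM in control libraries. The control libraries were close together and the mannose libraries spread more than 2-fold, with mannose library 3 nearest to the controls. The means were 275 ± 124 TPM with mannose and 573 ± 12.5 TPM in controls, a log2 difference of -1.15 (SE 0.28, limma, adjusted p = 0.0193). That call was lost without any of 5 of the 6 libraries (adjusted p up to 0.0762, the exception being mannose 3). Under macrophage scaling the difference was 0.78, where the median of all genes was 1.83. Itgb2 passed in 8 of 17 alternatives, including that scaling. Itgal measured 97.2, 125 and 234 TPM in mannose libraries, against 244, 229 and 243 TPM in control libraries. Mannose library 3 was inside the control range and the other mannose libraries were below it. The log2 difference of Itgal was -0.75 (SE 0.29, limma, adjusted p = 0.0876), and without mannose library 3 it was -1.11 (adjusted p = 0.00242).

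The marker lists of other cells moved in these sorts as well. The summed TPM of 12 macrophage and monocyte markers ranged from 1140 to 1510 in mannose libraries and from 4105 to 4388 in control libraries, and 12 of 12 passed as lower. In whole tumours the same sum ranged from 2227 to 4594 with mannose and from 1661 to 2917 in controls. Levels were not tested between tumours and CD8 libraries. Csf1r, the macrophage growth factor receptor, averaged 46.7 ± 4.58 TPM in mannose CD8 libraries and 178 ± 15.3 TPM in control CD8 libraries. The sum of 10 T cell markers ranged from 2438 to 4705 TPM with mannose and from 4687 to 5070 TPM in controls, and 3 of 10 passed as lower. Neutrophil markers summed to 97.8 to 198 TPM with mannose and 305 to 662 TPM in controls (5 of 6 tested lower). Dendritic cell markers summed to 13.3 to 18.1 TPM with mannose and 28.1 to 30.6 TPM in controls (4 of 5 tested lower). Ly6g and Xcr1 were under 1 TPM in every CD8 library. Among the dendritic markers called, Clec9a was at 0.52 to 0.76 TPM in the mannose libraries and entered the test only through the controls. NK cell markers summed to 41.7 to 87.4 TPM with mannose and 75.8 to 76.7 TPM in controls (0 of 3 tested passed), and B cell markers stayed at or under 0.25 TPM, with Ms4a1 at 0. Keratins and other carcinoma markers summed to 1593 to 2450 TPM with mannose and 206 to 502 TPM in controls (3 of 3 tested higher). Fibroblast markers summed to 91.2 to 186 TPM with mannose and 19.4 to 56.4 TPM in controls (4 of 5 higher). Among the fibroblast markers called, Pdgfra was at 0.41 to 0.94 TPM in the controls and entered the test only through the mannose libraries. With like libraries averaged, all 12 macrophage and all 3 tested carcinoma markers still passed, against 2 neutrophil markers and 0 T cell, dendritic or fibroblast markers.

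Set against these lists, the members divided. As a share of the summed macrophage markers, Itgam was 2.42%, 2.95% and 3.52% in mannose libraries, against 4.49%, 4.62% and 4.44% in control libraries. The mannose shares were all lower than the control shares. Itgax was 1.24%, 1.36% and 1.63% of the same sum in mannose libraries, against 1.79%, 1.78% and 1.62% in control libraries, so its groups met. As a share of the summed T cell markers, Itgal was 3.99%, 4.01% and 4.97% in mannose libraries, against 4.96%, 4.89% and 4.8% in control libraries, and these overlapped. Itgb2 was 7.47%, 7.32% and 8.84% of the T cell sum in mannose libraries, against 11.7%, 11.9% and 11.5% in control libraries.

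Refitting all genes with libraries scaled to their T cell markers raised the median of all genes to 0.71, and Itgam (-1.68) and Itgax (-1.34) still passed as lower in log2 difference. Itgb2 (-0.46, limma, adjusted p = 0.107), Itgal (-0.07), Itgae (-0.26) and Itga4 (0.27) lay below that median and did not pass. Itgb1 (1.37) and Itgb7 (0.91) lay above the median and passed as higher. Under this T cell scaling, 5763 of all 14280 genes passed as higher and 367 as lower. Scaling to macrophage markers raised the median of all genes to 1.83. Itgam then remained lower at -0.45 (limma, adjusted p = 0.00585), Itgax was at -0.13, and the other 7 members passed as higher, from 0.61 for Itgae to 2.61 for Itgb1, with Itgal (1.17), Itgae, Itga4 and Itgb2 below the median of all genes and Itga1 (1.95), Itgb1 and Itgb7 (2.14) above it. In that fit 13274 of all 14280 genes passed as higher and 75 as lower.

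**Figure D3:**
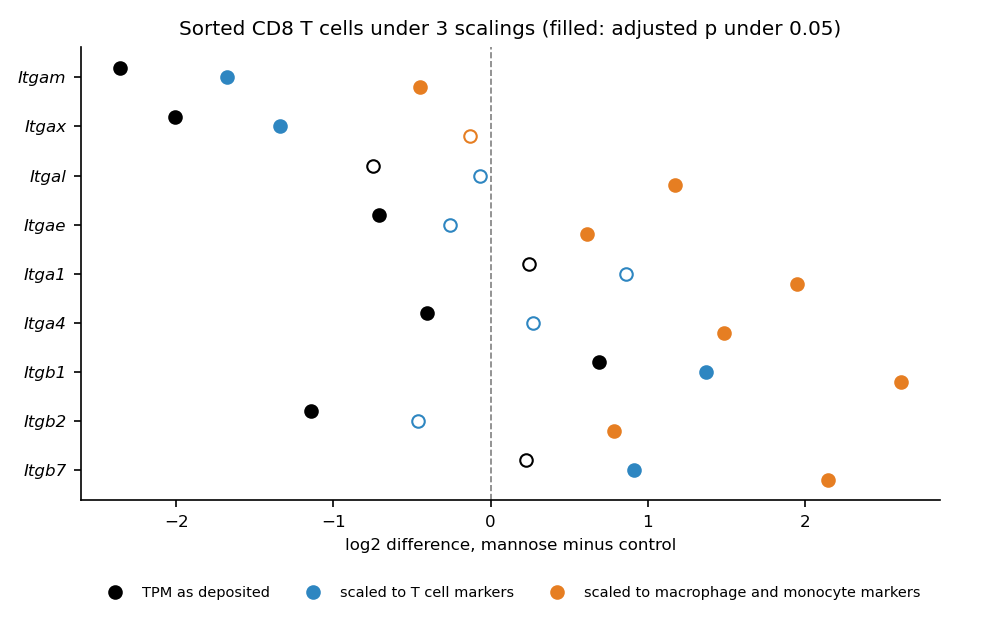
Log2 difference between mannose and control CD8 libraries for each gene with the TPM as deposited and after scaling to T cell or to macrophage and monocyte markers (filled points: limma adjusted p under 0.05). Itgam stays left of 0 and filled under all 3 scalings (-2.36, -1.68 and -0.45), Itgax loses its call under macrophage scaling, and Itgal, Itgae, Itga4 and Itgb2 are positive there but below the median of all genes, 1.83.

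In the β7 and β1 families, log2 differences in the CD8 libraries lay between -0.71 and 0.69. Itgae measured 1.13, 1.35 and 2.43 TPM in mannose libraries, against 2.83, 3.31 and 3.58 TPM in control libraries. The groups did not overlap, but the levels were close to the 1 TPM floor of the test and the opposite-strand gene Haspin measured 3.75 to 4.06 TPM in the same libraries. The log2 difference of Itgae was -0.71 (SE 0.22, limma, adjusted p = 0.0438). That call was lost without any of 5 of the 6 libraries (adjusted p up to 0.143, the exception being mannose 3). Under macrophage scaling the difference was 0.61, below the median of all genes there. Itgae passed in 7 of 17 alternatives, including that scaling, but not with a pseudocount of 0.1 (limma, adjusted p = 0.0522). Itgb7 measured 134, 137 and 185 TPM in mannose libraries, against 117, 124 and 146 TPM in control libraries. Only mannose library 3 was above every control, and the log2 difference of 0.23 did not pass (limma, adjusted p = 0.270).

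Itga4 measured 33.4, 44.3 and 38.9 TPM in mannose libraries, against 56.0, 52.3 and 46.3 TPM in control libraries. The gap between mannose library 2 and control library 3 was small. The log2 difference was -0.40 (SE 0.13, limma, adjusted p = 0.0484), which passed in 6 of 17 alternatives, including macrophage scaling, where it was positive. It was lost without any of 5 of the 6 libraries (adjusted p up to 0.141, the exception being mannose 2). It was also lost with the replicate number as a block (adjusted p = 0.0710), a pseudocount of 0.1 (0.0504), no filter (0.0879) and like libraries averaged (0.152). It was positive under both marker scalings (0.27 and 1.49), and in both it lay below the median of all genes (0.71 and 1.83). Itgb1 measured 313, 306 and 251 TPM in mannose libraries, against 194, 183 and 161 TPM in control libraries. Every mannose library was higher than every control library, with means of 290.0 ± 33.8 TPM with mannose and 179 ± 16.6 TPM in controls. The log2 difference of Itgb1 was 0.69 (SE 0.11, 95% interval 0.42 to 0.96, limma, adjusted p = 0.00514), it passed in 16 of 17 alternatives, and with like libraries averaged adjusted p was 0.0559. Itga1 measured 8.75, 9.75 and 8.22 TPM in mannose libraries, against 8.70, 8.12 and 5.58 TPM in control libraries. These overlapped, and the log2 difference of 0.24 did not pass (limma, adjusted p = 0.329).

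The make-up of the β2 family within a library needs no scaling between libraries. Of the summed TPM of Itgal, Itgam, Itgax and Itgad, Itgal held 63.7%, 71.4% and 79.9% in mannose CD8 libraries, against 47.0%, 45.2% and 49.5% in control CD8 libraries. Itgal, the subunit of LFA-1, thus held a larger share in each mannose library than in any control library. Itgam held 19.1 ± 5.12% with mannose and 38.2 ± 1.28% in controls, and Itgax 9.21 ± 2.99% with mannose and 14.6 ± 0.946% in controls (SD, n = 3 each). In whole tumours the shares were close, with Itgal at 18.2 ± 1.95% with mannose and 17.4 ± 2.29% in controls, Itgam at 45.9 ± 7.30% with mannose and 45.2 ± 6.99% in controls, and Itgax at 35.8 ± 5.83% with mannose and 37.3 ± 5.08% in controls (SD, n = 5 each). Itgad, the remaining α subunit, held at most 0.423% in any tumour. Of the partners of Itgb7, Itgae held 56.0 ± 4.49% in mannose tumours and 66.7 ± 7.98% in control tumours, but 4.04 ± 1.61% in mannose CD8 libraries and 5.98 ± 1.19% in control CD8 libraries, where Itga4 made up the rest. These shares are descriptions and were not tested.

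**Figure D4:**
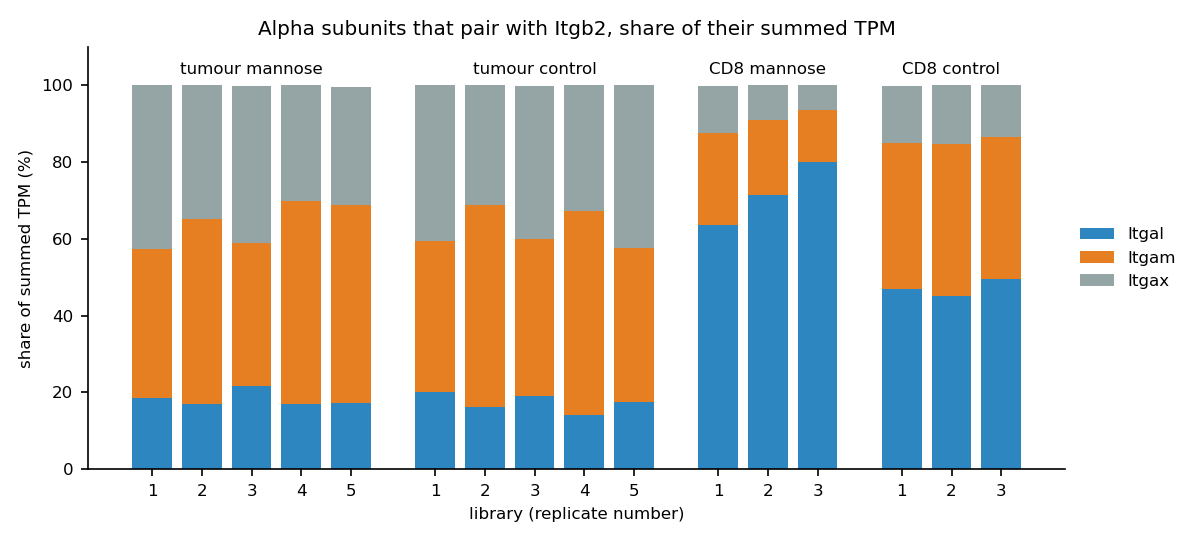
Shares of Itgal, Itgam and Itgax in the summed TPM of the α subunits that pair with Itgb2, 1 bar per library, with Itgad making up the remainder to 100%. Itgal holds 63.7% to 79.9% in mannose CD8 libraries and 45.2% to 49.5% in control CD8 libraries, and 14.2% to 21.5% in the tumours.

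Whether mannose differences were other in CD8 libraries than in tumours was tested with an interaction term in a fit to all 16 libraries. Only Itgam and Itgax passed, both lower, beside 7.64% of the 15498 genes tested that passed as lower. For Itgam the CD8 difference minus the tumour difference was -2.77 on the log2 scale (SE 0.48, limma, adjusted p = 9.73e-04), and for Itgax it was -2.34 (SE 0.61, limma, adjusted p = 0.0136). With like CD8 libraries averaged, Itgam passed at -2.72 (adjusted p = 0.00962) and Itgax did not, at -2.28 (adjusted p = 0.0685). In that averaged fit 562 of the 15196 genes tested passed as lower. Of 24 alternatives, in which no marker scaling was run, Itgam passed in 24 and Itgax in 23. Itgb2 (-1.57, adjusted p = 0.0680), Itgal (-1.19, adjusted p = 0.174), Itga4 (-0.79, adjusted p = 0.159) and Itgae (-0.68, adjusted p = 0.405) did not pass. Nor did Itgb1 (0.48, adjusted p = 0.202), Itgb7 (0.33, adjusted p = 0.592) or Itga1 (-0.04, adjusted p = 0.954). Without control tumour 1 Itgb1 passed at 0.64 (adjusted p = 0.00563), and Itgb2 passed at -1.92 without mannose CD8 library 3 (adjusted p = 0.0304) and at -1.74 without control tumour 5 (adjusted p = 0.0471).

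**Figure D5:**
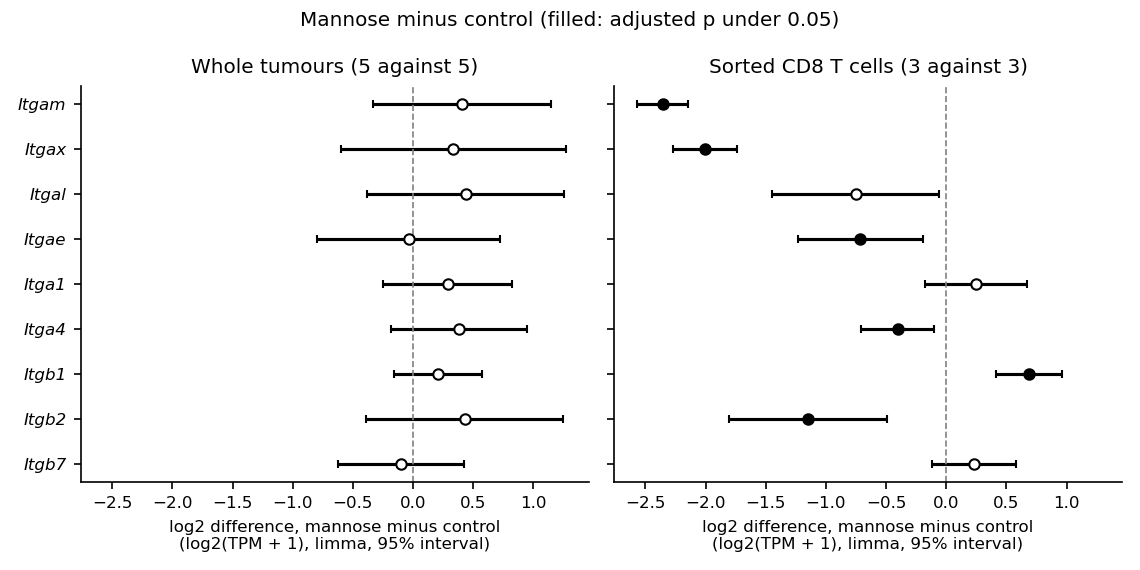
Log2 difference between mannose and control for each gene, with limma's 95% interval, in whole tumours (left) and sorted CD8 T cells (right); filled points have an adjusted p under 0.05. All tumour intervals include 0, while in CD8 libraries Itgam and Itgax lie near -2 and Itgb1 at 0.69; the Itgae, Itga4 and Itgb2 values were positive under macrophage scaling, which moved the median of all genes to 1.83, above all 3.

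Other genes of the integrin system were read from 3 lists. In tumours, 0 of 13 tested other integrin subunits, 0 of 13 ligands and 0 of 25 activation and signalling genes passed limma's test, and their median log2 differences were 0.09, 0.15 and 0.24. In CD8 libraries, 7 of the 12 tested other subunits (of 17 listed) passed as higher and 3 as lower, with a median of 0.93, and with like libraries averaged 4 passed as higher and 1 as lower. Among them were Itgb4 (43.0 ± 8.15 TPM with mannose and 8.39 ± 1.23 TPM in controls, SD, n = 3 each, limma, adjusted p = 4.73e-04) and Itga6 (155 ± 17.5 TPM with mannose and 40.0 ± 15.7 TPM in controls, adjusted p = 0.00367), which together form the laminin receptor of epithelial cells. Itga3 (103 ± 14.6 TPM with mannose and 46.3 ± 5.77 TPM in controls), Itga10 (4.59 ± 1.17 TPM with mannose and 0.817 ± 0.0929 TPM in controls) and Itga2b (2.90 ± 0.271 TPM with mannose and 0.940 ± 0.341 TPM in controls) were higher with mannose as well. With like libraries averaged, Itga2b did not pass. Itga10 was under 1 TPM in every control library (0.74 to 0.92 TPM) and entered the test only through the mannose libraries. Its call, counted as higher in both fits, was therefore favoured by the filter. Itga9 fell, at 5.29 ± 1.67 TPM with mannose and 20.8 ± 0.948 TPM in controls (log2 difference -1.83, adjusted p = 0.00190).

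Of the 12 tested ligands (of 18 listed), 6 passed as higher and 4 as lower in CD8 libraries, with a median of 0.49, and with like libraries averaged 2 passed as higher and 3 as lower. Fn1, fibronectin, the matrix ligand of VLA-4, averaged 1300.0 ± 263 TPM with mannose and 350.4 ± 119 TPM in controls (log2 difference 1.93, limma, adjusted p = 0.00361). Vcam1, the cellular ligand of VLA-4, averaged 17.6 ± 1.91 TPM with mannose and 38.8 ± 0.812 TPM in controls (-1.10, adjusted p = 0.00114). Cdh1, the E-cadherin bound by αE, averaged 11.04 ± 2.95 TPM with mannose and 28.7 ± 1.20 TPM in controls (-1.33, adjusted p = 0.00269). C3, the source of the complement fragment bound by Mac-1 (-1.47), and Icam1, the main ligand of LFA-1 (-0.90), also fell. F11r, the junctional adhesion molecule bound by LFA-1, rose (1.39). With like libraries averaged, Icam1 did not pass. Madcam1, the ligand of the α4β7 dimer, was under 1 TPM in all tumours and CD8 libraries.

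Of the 24 tested activation and signalling genes (of 25 listed), 4 passed as higher and 11 as lower in CD8 libraries, with a median of -0.44. With like libraries averaged, 2 passed as higher and 5 as lower. The tyrosine kinase Syk averaged 11.9 ± 1.10 TPM with mannose and 66.5 ± 5.16 TPM in controls (log2 difference -2.39, limma, adjusted p = 2.03e-04). Fgr averaged 10.6 ± 1.13 TPM with mannose and 37.1 ± 1.48 TPM in controls (-1.72), and Lyn 27.7 ± 1.89 TPM with mannose and 78.2 ± 3.47 TPM in controls (-1.46). Cyth1, a regulator of β2 adhesion, fell too (-1.38), and Ptk2, the focal adhesion kinase, rose to 27.7 ± 7.37 TPM with mannose, against 7.17 ± 1.87 TPM in controls (1.81, adjusted p = 0.00303). The 12 macrophage markers fell and the 3 tested carcinoma markers rose in the same libraries, and their part in these list counts was not tested.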

How the data were processed

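The deposited tables held 1 TPM column per library. Per the submitters' processing notes, the authors used fastp, HISAT, RSEM and the build GRCm39, with no versions given; the counting settings and annotation are not given in the sources used here. TPM carries no library totals, so counting error could not be estimated. Entries sharing a symbol were summed, and each of the 9 members had 1 entry per table. Groups came from the sample labels.

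Each tissue was fitted on its own with limma 3.58.1 in R 4.3.3 (with variance trend) on log2(TPM + 1), which understates changes of low genes, for genes with at least 1 TPM in 5 tumour or 3 CD8 libraries. Benjamini-Hochberg adjustment ran over all genes tested, and 0.05 was the threshold. The interaction was fitted on 52916 symbols shared by both tissues, at 1 TPM in at least 3 libraries. Correlations used 100000 resamples per pair with scipy 1.17.1 in Python 3.11.15; figures used matplotlib 3.10.9. The limma fits were also run on simulated data with independent noise in each library. Those data held no pairs of like libraries, so they cannot speak to such pairs in the CD8 fit.

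All members are named with every library's value; of the other integrin genes, up to 6 per list past the threshold with the smallest adjusted p are named, and for likeness 3 genes per member; a few that these rules would name are not reported here. Members, lists, tests and alternatives were chosen with earlier results of these data known. Alternatives changed the pseudocount (0.1 or 5), the filter, the scaling, array weights, the replicate number as a block and the libraries included. Promoters came from RefSeq by symbol; overlapping genes came from GENCODE M21.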

Additional observations from a re-analysis of the deposited data

Results flagged for a closer look

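Single libraries stood apart within their groups in 2 of 18 groups of tumour values examined, where chance flags about 1 in 20. For Itga4, mannose tumour 3 at 4.04 TPM was far above the other mannose tumours, which lay between 1.39 and 2.07 TPM. For Itgam, control tumour 1 at 8.75 TPM was far below the other control tumours, which lay between 29.4 and 37.1 TPM. The mannose difference of Itgam was other in CD8 libraries than in tumours by -2.77 on the log2 scale (limma interaction, adjusted p = 9.73e-04), with lower values than every control in 3 of 3 mannose CD8 libraries and higher values than every control in 2 of 5 mannose tumours. For Itgax the same difference was -2.34 (limma interaction, adjusted p = 0.0136), with the same counts of libraries; with like CD8 libraries averaged it did not pass (-2.28, adjusted p = 0.0685).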

How the results depend on the processing

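In the tumours 0 of the 9 members passed in any of 20 alternatives, and the number of genes called with 1 library left out ranged from 0 to 1, the 1 call arising without mannose 4. Several tumour differences changed sign, none past the threshold. Without control 1 and mannose 3 the log2 differences were -0.079 (Itgam), -0.20 (Itgax), -0.062 (Itgal), -0.041 (Itga1), -0.00055 (Itga4) and -0.10 (Itgb2). Scaled to macrophage markers, which moved the median of all genes to -0.30, they were -0.045 (Itgam), -0.12 (Itgax), -0.022 (Itga1), -0.26 (Itgb1) and -0.035 (Itgb2), all above that median. Itgae was 0.022 with a pseudocount of 0.1 and ranged from -0.31 to 0.20 with 1 library left out, and Itgb7 was 0.25 with array weights and ranged from -0.22 to 0.072. Without control 1 and mannose 3 r was 0.754 for Itgae and Itgb7 (past the threshold) and 0.429 for Itga1 and Itgb1 (not past it). In CD8 libraries the genes called numbered 4980, against 8631 with array weights, 1652 with like libraries averaged, 13349 scaled to macrophage markers and 2803 to 6119 with 1 library left out. Of the 9 members 6 passed, against 3 with no filter, 3 with all 16 libraries in 1 fit, 2 with like libraries averaged and 3 to 6 with 1 library left out. With a pseudocount of 0.1, 1 member passed as higher and 3 as lower. Scaled to macrophage markers Itgal (1.17), Itgae (0.61), Itga4 (1.49) and Itgb2 (0.78) were positive but below the median of all genes (1.83), as was Itga4 (0.27) scaled to T cell markers (median 0.71). In the interaction 2 members passed, against 4 after median-ratio scaling, 5 with array weights and 1 (Itgam) with like CD8 libraries averaged. It called 2896 genes, 6323 with array weights, 1609 with like CD8 libraries averaged and 1884 to 4010 with 1 library left out. Itga1 there turned to 0.043 with a pseudocount of 5, 0.12 with array weights and 0.018 with like CD8 libraries averaged, and ranged from -0.22 to 0.18 with 1 library left out, and Itgb7 turned to -0.048 with array weights. The cause of the other changes was not tested. Median-ratio scaling changed the CD8 split from 3306 higher and 1674 lower to 2597 higher and 2529 lower, and quantile normalization to 2673 and 2305. The replicate numbers are shared by the groups, but same-numbered libraries did not deviate together throughout (correlations from -0.511 to 0.280 in tumours and 0.0566 to 0.163 in CD8 libraries), so they were not taken as pairs. With the replicate block 0 tumour genes, 4838 CD8 genes and 2493 interaction genes passed, with 5 of 9 members in CD8 libraries, Itga4 being lost (adjusted p = 0.0710).

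Read depth is unknown, so the error of low values such as Itgae and Itga1 cannot be separated into counting and other sources. In each CD8 group 2 of 3 libraries shared their T cell receptor use, and whether they are independent samples is not given in the labels. With a library left out, the CD8 fit compares 3 with 2 libraries.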
